A study of Mus musculus with 10 samples.

Results

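The 9 genes Clec9a, Batf3, Itgax, Flt3, Zbtb46, Cd209a, Siglech, Fscn1 and Cd83 are used to mark dendritic cells, their subsets and their mature state. They were chosen by name, and all 9 were found among the 21792 genes measured in every mouse. Their levels were read in the kidney cortex of 10 wild-type (WT) male C57BL/6 mice, 8 weeks old at injection, whose controls were littermates. The 4 sham mice received PBS. The 6 AAN mice received aristolochic acid once by intraperitoneal injection at 5 mg/kg, which induces aristolochic acid nephropathy (AAN), a toxic injury of the proximal tubule followed by fibrosis. All kidneys were taken at day 28, and each mouse gave 1 library. The comparison asks how the RNA of these genes in whole cortex differed between the groups. Since the tissue was sequenced in bulk, a change in the number of cells of a type and a change in RNA per cell cannot be told apart.

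Dendritic cells arise from bone marrow precursors, take up antigen in tissues and present it to T cells. Conventional type 1 dendritic cells (cDC1) develop under BATF3 and sense dead cells through CLEC9A, conventional type 2 cells (cDC2) mainly prime CD4 T cells, and plasmacytoid cells (pDC) release type I interferon. On maturation, dendritic cells gain CD83 and the actin-bundling protein fascin and migrate to lymph nodes. In the kidney they lie in the interstitium beside macrophages, with which they share several markers, Itgax among them.

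Levels are given as FPKM, fragment numbers scaled by the length of the gene and by the depth of the library. Of the 9 members, 8 had a RefSeq promoter entry of 300 bases around the annotated start (GRCm38.p6), and the entry of Cd83 was missing. Motifs of factors that act in myeloid cells were searched on both strands. The AP-1 motif TGANTCA, which BATF3 binds with JUN partners, was in 7.81% of 32851 promoters and in those of Itgax and Zbtb46. The ETS-IRF motif GGAANNGAA, bound by PU.1 with IRF4 or IRF8, was in 8.24% of promoters and occurred at 2 places in that of Cd209a. The PU.1 motif GAGGAAGT was in 3.20% of promoters and in none of the 8. Of the 8 promoters searched, the 3 with a match are shown. They read 5′ to 3′ along the strand of the gene, with the matched bases in capitals, and a match is a description of these letters only.
Itgax (chr7:128129300-128129599, + strand): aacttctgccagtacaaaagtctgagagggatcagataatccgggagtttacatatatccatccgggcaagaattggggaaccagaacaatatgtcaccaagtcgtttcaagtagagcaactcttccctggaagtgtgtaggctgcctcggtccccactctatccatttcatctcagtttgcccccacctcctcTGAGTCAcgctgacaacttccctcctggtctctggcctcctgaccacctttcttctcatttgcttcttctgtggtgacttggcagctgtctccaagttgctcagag
Zbtb46 (chr2:181424339-181424638, - strand): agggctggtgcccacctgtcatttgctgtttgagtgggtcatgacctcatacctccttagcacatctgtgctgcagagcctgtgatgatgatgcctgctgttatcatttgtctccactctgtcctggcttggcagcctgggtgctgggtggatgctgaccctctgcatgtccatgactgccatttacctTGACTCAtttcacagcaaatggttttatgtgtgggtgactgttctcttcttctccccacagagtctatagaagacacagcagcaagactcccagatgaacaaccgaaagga
Cd209a (chr8:3748935-3749234, - strand): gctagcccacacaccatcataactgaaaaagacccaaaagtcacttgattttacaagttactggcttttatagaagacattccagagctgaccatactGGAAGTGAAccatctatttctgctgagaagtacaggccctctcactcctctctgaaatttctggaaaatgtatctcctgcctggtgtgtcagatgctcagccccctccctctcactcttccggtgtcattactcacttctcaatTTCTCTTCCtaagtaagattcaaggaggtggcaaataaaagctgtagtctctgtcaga
The AP-1 match of Itgax was TGAGTCA at position -56 from the start and that of Zbtb46 was TGACTCA at -61. In Cd209a, GGAAGTGAA began at -152, and the match at -8 was on the opposite strand. The start used for Zbtb46 lay inside the span of the gene.

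The depth recovered from the values was 15.8 to 17.5 M fragments in sham mice and 13.4 to 16.5 M in AAN mice. Between 16690 and 17639 genes were above 0 in sham mice, against 19158 to 19636 in AAN mice. Genes of the proximal tubule (summed level 1857 to 3698 FPKM in sham mice) and of podocytes (42.9 to 83.2 FPKM) were present in every cortex. A single AAN mouse, B614, stood apart: its proximal tubule genes summed to 1884 FPKM, against 491 to 836 in the other AAN mice, and its leukocyte genes (Ptprc, Cd53, Laptm5, Coro1a) to 74.5, against 109 to 175. B614 was the lowest AAN mouse in 4 of the 9 members, and their sum was 48.7 FPKM there and 72.9 to 104 in the others. Among sham mice, B634 was the lowest in 5 members, and the sum of the 9 ranged from 3.01 in B634 to 5.31. The median-of-ratios factor, a measure of how high the genes of a mouse lie in general, was also lowest in B634, at 0.608. It was 0.717 to 0.850 in the other sham mice and 1.12 to 1.34 in AAN mice. For members and pairs, results that lose or gain a call without either mouse are given with the value without it. For lists, only the changed count of genes called higher is given, and the genes that lose the call are not named.

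All 9 genes were higher in every AAN mouse than in every sham mouse, a separation seen in 40.3% of all 17129 genes tested. Of the 9, 8 passed the filter of a mean of at least 0.1 FPKM, and Siglech, with a mean of 0.0918, did not. All 8 were called higher, at an adjusted p of at most 0.05 and at least 2-fold, as were 35.8% of all genes tested. None was called lower. Their median log2 difference was 3.61, beside 0.75 for all genes. Log2 differences are AAN minus sham on the scale log2(FPKM + 0.1), which understates the change of low genes.

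**Figure D1:**
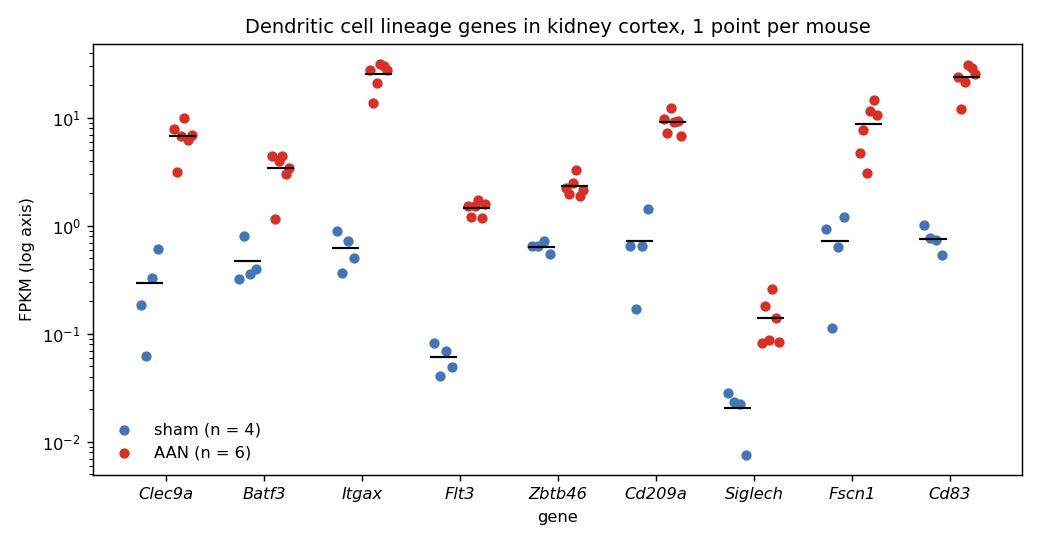
Level of each dendritic cell lineage gene in FPKM (log axis) in the 4 sham mice (blue) and the 6 AAN mice (red), 1 point per mouse, with a bar at each group mean. In all 9 genes the lowest AAN mouse lay above the highest sham mouse, most narrowly in Batf3 (1.16 against 0.810) and most widely in Itgax (13.8 against 0.894).

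Both cDC1 genes were higher in AAN mice. Clec9a (ENSMUSG00000046080, chromosome 6, 129408862 to 129424763, + strand) encodes a C-type lectin that binds actin exposed by dead cells. It stood at 0.184, 0.0624, 0.330 and 0.615 FPKM in sham mice B607, B634, B636 and H249. In AAN mice it ranged from 3.18 in B614 through a median of 6.87 to 10.005 in B639. The group means were 0.298 ± 0.238 (SD, n = 4) and 6.86 ± 2.24 (SD, n = 6), a ratio of 23.0 (35.7 without sham mouse H249), and the log2 difference was 4.26 (SE 0.40, limma adjusted p = 3.30e-06). With a pseudocount of 1 the difference was 2.56, also called. The sham mice were spread over a wider fold than the AAN mice, and the groups did not overlap. The annotation places Clec1b and the intronic transcript Gm43914 in the same span and on the same strand. Gm43914 was at 0 to 0.288 FPKM in sham and 1.39 to 5.15 in AAN mice, and Clec1b at no more than 0.393 in any mouse. How fragments were shared among the 3 was not stated, so the level of Clec9a is uncertain to that extent.

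Batf3 (ENSMUSG00000026630, chromosome 1, 191097847 to 191108945, + strand) encodes the basic leucine zipper factor that cDC1 need to develop. It was at 0.322, 0.810, 0.361 and 0.399 FPKM in sham mice B607, B634, B636 and H249. AAN mice ran from 1.16 in B614 over a median of 3.73 to 4.49 in A483. One sham mouse, B634, was well above the other 3, and B614 was the only AAN mouse below 3 FPKM. The means were 0.473 ± 0.227 (SD, n = 4) and 3.43 ± 1.25 (SD, n = 6), with a log2 difference of 2.58 (SE 0.37, limma adjusted p = 9.43e-05). It was 1.53 with a pseudocount of 1 and 1.45 after quantile normalization, called in both. Batf3 is also expressed by activated T cells, and the part of T cells in this difference was not tested. All 5 genes of the T cell list were called higher, and their sum rose from 0.617 to 2.45 FPKM in sham to 57.8 to 156 in AAN mice.

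Other genes of cDC1 were counted from a list of 8, of which 7 were called higher and none lower, with a median log2 difference of 3.18. Xcr1, the chemokine receptor that marks cDC1, rose from 0.160 ± 0.107 to 2.80 ± 0.399 FPKM (log2 difference 3.57, SE 0.27). Irf8, the factor that specifies these cells and is also used by other myeloid and B cells, rose from 1.39 ± 0.237 to 11.7 ± 2.22 FPKM (log2 difference 2.98, SE 0.18). Wdfy4, needed to cross-present antigen from cells, had a log2 difference of 3.50, and Itgae, the integrin subunit CD103 that some T cells also carry, one of 3.59. Those of Naaa, Snx22 and the double-stranded RNA receptor Tlr3 were 3.38, 2.44 and 2.07. Cadm1, an adhesion molecule that epithelia also make, was not called (0.869 ± 0.189 and 1.06 ± 0.302 FPKM, log2 difference 0.23, adjusted p = 0.428).

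The shared lineage genes differed in size. Itgax (ENSMUSG00000030789, chromosome 7, 128129547 to 128150657, + strand) encodes the integrin subunit CD11c of conventional dendritic cells and many macrophages. Sham mice B607, B634, B636 and H249 were at 0.894, 0.369, 0.733 and 0.503 FPKM. AAN mice ran from 13.8 in B614 over a median of 27.7 to 31.9 in B639. Each AAN mouse was thus at least 15.5 times the highest sham mouse, the widest gap of the 9 genes. The means were 0.625 ± 0.234 (SD, n = 4) and 25.4 ± 6.76 (SD, n = 6), a ratio of 40.7, and the log2 difference of 5.14 (SE 0.27, limma adjusted p = 1.44e-07) stood at percentile 99.4 of all genes tested. In the transcripts of Itgax, 8.02% of 50-base windows also occurred in other genes, so some of its fragments could have been assigned either way. Macrophage genes moved with it: 8 of 9 were called higher, and their sum went from 43.0 to 69.2 FPKM in sham to 640 (in B614) to 2177 in AAN mice. Their part in the level of Itgax was not tested.

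Flt3 (ENSMUSG00000042817, chromosome 5, 147330741 to 147400489, - strand) encodes the receptor for the growth factor that drives dendritic cell development. It was the steadiest of the 9 among AAN mice, with a 1.47-fold range from 1.19 in B642 over a median of 1.53 to 1.75 in B639. In sham mice B607, B634, B636 and H249 it was at 0.0832, 0.0409, 0.0688 and 0.0491 FPKM, which is at most 4.0 to 9.002 fragments per library. The means were 0.0605 ± 0.0192 (SD, n = 4) and 1.47 ± 0.223 (SD, n = 6), with a log2 difference of 3.29 (SE 0.19, limma adjusted p = 1.78e-07). With so few sham fragments its size moved with the pseudocount, to 1.22 with 1 and 4.42 with 0.01, and it was called under both. All 6 AAN mice lay above the 4 sham mice.

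Zbtb46 (ENSMUSG00000027583, chromosome 2, 181387762 to 181459426, - strand) encodes a zinc finger factor of conventional dendritic cells that endothelial cells also express. Sham mice B607, B634, B636 and H249 were close together at 0.655, 0.653, 0.720 and 0.548 FPKM. AAN mice ran from 1.90 in B642 over a median of 2.21 to 3.31 in B639. It had the smallest difference of the 8 tested, with means of 0.644 ± 0.0713 (SD, n = 4) and 2.35 ± 0.519 (SD, n = 6), a ratio of 3.65 and a log2 difference of 1.70 (SE 0.19, limma adjusted p = 1.23e-05). After quantile normalization, which gives every mouse the same distribution of values, the difference was 0.56 and no longer called (adjusted p = 0.051). With a pseudocount of 1 it was 1.02 and by the median of ratios 1.004, called in both. Of 5 endothelial genes none was called, and their sum was 60.7 to 97.9 FPKM in sham and 112 to 131 in AAN mice. The share of endothelium in the level of Zbtb46 was not tested.

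**Figure D2:**
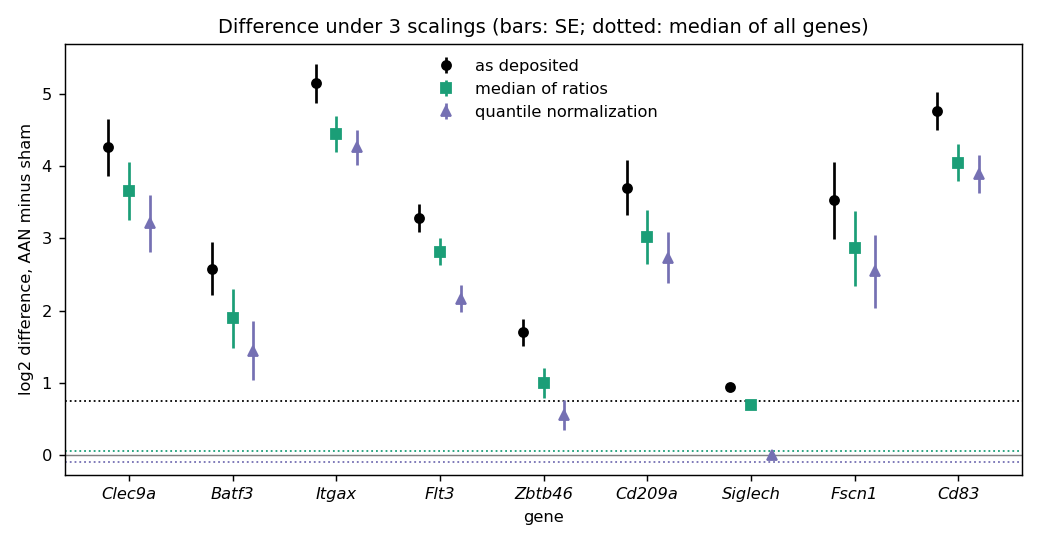
Log2 difference (AAN minus sham) of each gene, with its SE where tested, for the FPKM as deposited (black), rescaled by the median of ratios (green) and after quantile normalization (purple). Dotted lines mark the median of all genes, at 0.75, 0.06 and -0.10, and all members but Siglech and, after quantile normalization, Zbtb46 keep a called increase under the 3 scalings.

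Cd209a (ENSMUSG00000031494, chromosome 8, 3743397 to 3748984, - strand) encodes a C-type lectin found on cDC2 and on monocyte-derived dendritic cells. Its sham values were 0.654, 0.170, 0.655 and 1.43 FPKM in B607, B634, B636 and H249. In AAN mice it went from 6.81 in B666 over a median of 9.28 to 12.4 in B630. The spread was wider as a fold in sham mice than in AAN mice, and the groups did not overlap. The means were 0.727 ± 0.521 (SD, n = 4) and 9.12 ± 2.01 (SD, n = 6), a ratio of 12.5, with a log2 difference of 3.70 (SE 0.38, limma adjusted p = 7.24e-06). All 4 genes of the monocyte list were also called higher, with a summed level of 4.13 to 6.61 FPKM in sham and 31.5 to 83.6 in AAN mice, and their part in the result was not tested.

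The relatives of Cd209a were much lower. Of a list of 6, Cd209g was not matched by symbol, and only Cd209c and Cd209d passed the filter, both called higher. Cd209c was listed at 0 in every sham mouse and averaged 0.491 ± 0.0380 FPKM in AAN mice, at least 4.02-fold the floor set by 3 fragments per library. Cd209d was at 0 to 0.133 FPKM in sham and 0.208 to 1.204 in AAN mice. Cd209b, Cd209e and Cd209f did not exceed 0.236 FPKM in any mouse.

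From a list of 7 other cDC2 genes, all 7 were called higher, with a median log2 difference of 3.82. Mgl2 and Clec10a, lectins that macrophages can also carry, rose from 0.785 ± 0.174 to 38.1 ± 15.02 FPKM and from 0.134 ± 0.0545 to 3.45 ± 1.09 FPKM. Irf4, the factor needed for cDC2 function, rose from 0.126 ± 0.0665 to 3.02 ± 0.428 FPKM (log2 difference 3.82, SE 0.23). Ltb, a TNF family member of lymphoid cells and some cDC2, and Cd7 had log2 differences of 5.14 and 3.56. Sirpa and Clec4a4 had 1.53 and 1.24, and in these 2 the groups overlapped. The count of called genes was 6 without sham mouse B634 and 5 after quantile normalization.

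Siglech (ENSMUSG00000051504, chromosome 7, 55768178 to 55778925, + strand) encodes a sialic acid-binding lectin of pDC. It was at 0.0283, 0.0235, 0.0226 and 0.00752 FPKM in sham mice B607, B634, B636 and H249, at most 0.419 to 1.68 fragments per library and below the floor of 3 fragments. AAN mice were at 0.0828 to 0.259 FPKM with a median of 0.115, or at most 4.61 to 11.7 fragments. Every AAN mouse was above every sham mouse, but all 10 values were low. The log2 difference was 0.95 with a pseudocount of 0.1, 0.16 with 1 and 2.23 with 0.01, so its size was set by the pseudocount. Tested with no filter, it had an adjusted p of 0.004 and was under 2-fold. The depth allows no firmer statement.

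Of 9 other pDC genes, 8 were called higher and none lower, with a median log2 difference of 2.11. Most of them are not exclusive to pDC. Bst2 and Irf7, which interferon induces in many cells, rose from 22.3 ± 8.27 to 181 ± 61.0 FPKM and from 1.88 ± 0.500 to 13.2 ± 3.69 FPKM. Spib, Runx2 and Tcf4, transcription factors that pDC and other cells use, had log2 differences of 3.19, 2.11 and 1.40. In Tcf4 the groups overlapped, at 0.0636 to 0.183 FPKM in sham and 0.130 to 0.801 in AAN mice. The chemokine receptor Ccr9 had a log2 difference of 2.36, from at most 0.00398 FPKM in sham mice. Those of Ly6d and Pacsin1 were 2.05 and 1.82. Cox6a2 was not called (2.22 ± 1.05 and 1.19 ± 0.657 FPKM, log2 difference -0.81, adjusted p = 0.108). Under quantile normalization 5 of the 9 were called higher and 1 lower.

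Both genes of the mature state were higher in AAN mice. Fscn1 (ENSMUSG00000029581, chromosome 5, 142960343 to 142973185, + strand) encodes fascin, which mature dendritic cells, and also stromal and injured epithelial cells, use to bundle actin. Sham mice B607, B634, B636 and H249 were at 0.928, 0.114, 0.636 and 1.22 FPKM. AAN mice ran from 3.10 in B630 over a median of 9.23 to 14.7 in B642. This 4.76-fold range was the widest among AAN mice for any of the 9 genes. The means were 0.723 ± 0.470 (SD, n = 4) and 8.78 ± 4.42 (SD, n = 6), with a log2 difference of 3.52 (SE 0.54, limma adjusted p = 0.000157). Fibroblast genes moved too, with 5 of 5 called higher and a sum of 29.4 to 44.6 FPKM in sham and 105 to 257 in AAN mice. Their part in the level of Fscn1 was not tested.

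Cd83 (ENSMUSG00000015396, chromosome 13, 43784775 to 43803132, + strand) encodes a surface glycoprotein that stabilises MHC class II and CD86 on mature dendritic cells and appears on activated lymphocytes and macrophages. It was at 1.01, 0.766, 0.737 and 0.538 FPKM in sham mice B607, B634, B636 and H249. AAN mice ran from 12.2 in B614 over a median of 24.8 to 30.9 in B639. The lowest AAN mouse was 12.004 times the highest sham mouse. The means were 0.763 ± 0.195 (SD, n = 4) and 23.9 ± 6.71 (SD, n = 6), a ratio of 31.3, and the log2 difference was 4.76 (SE 0.26, limma adjusted p = 1.47e-07). The sum of the B cell genes was 0.673 to 1.28 FPKM in sham and 3.82 to 9.53 in AAN mice. The 3 of them that passed the filter were called higher, of which 1 was called after quantile normalization. The part of B cells, and that of T cells, whose sums are given with Batf3, was not tested.

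All 10 genes of the migratory list were called higher, with a median log2 difference of 4.07. Ccr7, the receptor that leads dendritic cells to lymph nodes and that T cells also carry, rose from 0.112 ± 0.0973 to 8.58 ± 3.98 FPKM (log2 difference 5.39, SE 0.36). The T cell attracting chemokine Ccl22 rose from 0.150 ± 0.0690 to 15.03 ± 6.11 FPKM (log2 difference 5.85, SE 0.32). Its neighbour in function Ccl17 was listed at 0 in every sham mouse and at 7.70 to 89.1 FPKM in AAN mice, on average at least 115-fold the floor of 3 fragments per library. The costimulatory genes Cd80, Cd86 and Cd40 had log2 differences of 4.29, 4.17 and 2.93. Those of the NF-κB subunit Relb, the calcium channel subunit Cacnb3, the IL-12 subunit Il12b and the cytokine signalling suppressor Socs2 were 3.97, 3.20, 2.44 and 1.89. After quantile normalization 9 of the 10 were called. Their sum was 3.48 to 5.02 FPKM in sham mice, 46.1 in B614 and 102 to 190 in the rest of the AAN group.

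Genes that guide dendritic cell growth and development gave a mixed picture. Of 9 listed, Flt3l, the ligand of the Flt3 receptor, was not matched by symbol, 6 of the 8 tested were called higher and none lower, and the median log2 difference was 2.49. The receptor subunits of GM-CSF, Csf2rb and Csf2ra, rose from 0.236 ± 0.141 to 10.2 ± 2.49 FPKM and from 4.05 ± 0.818 to 57.0 ± 19.7 FPKM. Spi1, which encodes the myeloid factor PU.1, rose from 0.995 ± 0.181 to 24.997 ± 8.24 FPKM. Csf2 itself was listed at 0 in every sham mouse and at 0 to 1.53 FPKM in AAN mice, so the groups overlapped. Ikzf1 and Stat5a had log2 differences of 2.06 and 1.07. In Ikzf1 the groups overlapped too, at 0.134 to 0.421 FPKM in sham and 0.256 to 5.45 in AAN mice. Id2, needed for cDC1 but strongly expressed in the whole cortex, was at 238 ± 51.0 and 191 ± 40.7 FPKM and was not called (adjusted p = 0.209). Nfil3 was at 9.30 ± 4.19 and 5.37 ± 1.23 FPKM, under the 2-fold limit. The count of called genes fell to 4 without sham mouse B634, and by the median of ratios it was 4 higher and 2 lower.

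**Figure D3:**
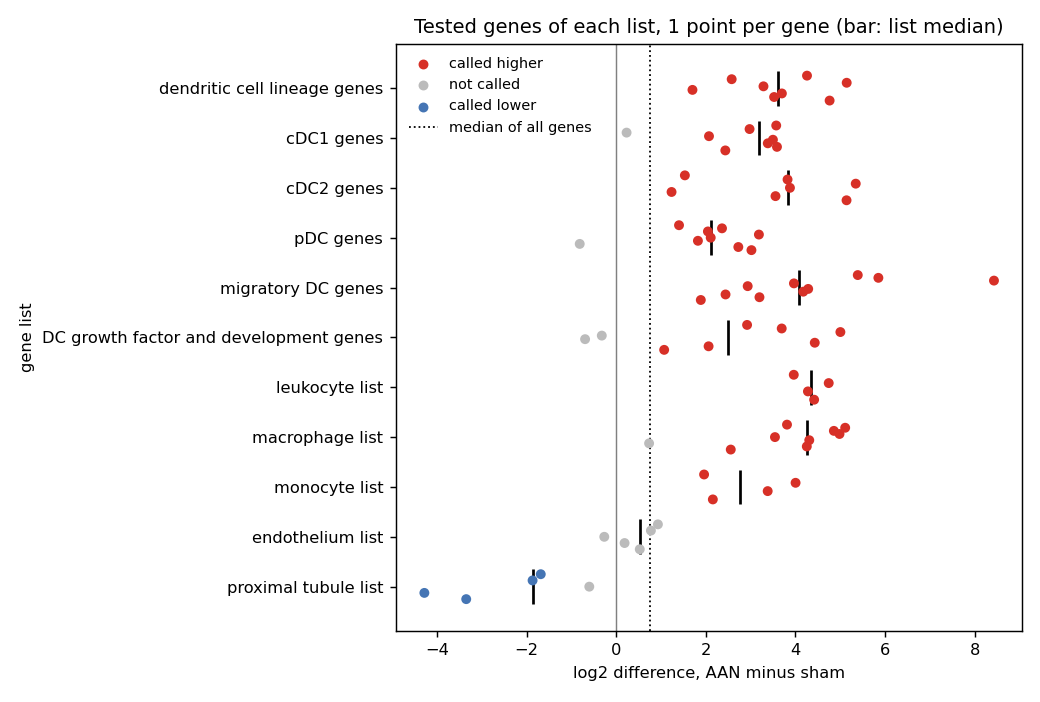
Log2 difference (AAN minus sham) of every tested gene of the lists shown, 1 point per gene, coloured by call, with a bar at the list median and a dotted line at the median of all genes (0.75). The 8 tested lineage genes lie between 1.70 and 5.14, the migratory list reaches furthest right of these lists through Ccl17, whose fitted value depends on the pseudocount, and the proximal tubule list lies below 0.

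The order of levels changed between the groups. In sham mice the means descended from Cd83 through Cd209a, Fscn1, Zbtb46, Itgax, Batf3 and Clec9a to Flt3 and Siglech. Neighbours in this order overlapped in range except Flt3 and Siglech. In AAN mice the order was Itgax, Cd83, Cd209a, Fscn1, Clec9a, Batf3, Zbtb46, Flt3 and Siglech. There the ranges of neighbours overlapped down to Batf3 and Zbtb46, while Zbtb46 lay above Flt3 and Flt3 above Siglech in every mouse. Itgax thus moved from the fifth place to the first, and Zbtb46 from the fourth to the seventh.

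Since leukocyte genes as a group were higher in AAN mice, each gene was also measured relative to the mean log2 value of the 4 leukocyte genes of the same mouse. These 4 were all called higher, with a median log2 difference of 4.35. On this relative scale 95.1% of all genes were called lower and 0.403% higher. Of the 8 members tested, 3 were called lower and none higher. Zbtb46 was 2.65 lower on the log2 scale (-2.65, SE 0.33, limma adjusted p = 7.27e-07), Batf3 had -1.77 (SE 0.39, adjusted p = 0.000421) and Flt3 -1.06 (SE 0.32, adjusted p = 0.00454). Flt3 was not called without sham mouse B634 (-0.92) or AAN mouse B642 (-0.92), nor relative to the macrophage list (-0.51, adjusted p = 0.143) or to Ptprc (-0.68). It also lost the call by the median of ratios (-0.82) and with a pseudocount of 0.01 (-0.09). Siglech, tested with no filter, was called lower at -3.41, a value that its pseudocount sets in part.

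The other members had relative differences under 2-fold. Clec9a was at -0.09 (SE 0.32, limma adjusted p = 0.776), and Cd83 was at 0.41 (SE 0.28, adjusted p = 0.157). Cd209a and Fscn1 were at -0.65 (SE 0.32, adjusted p = 0.0604) and -0.83 (SE 0.42, adjusted p = 0.0711). Fscn1 was called lower without sham mouse B634 (-1.18), with a pseudocount of 1 (-1.10) and after quantile normalization (-1.02). Itgax was the highest member at 0.79 (SE 0.24, adjusted p = 0.00496), under the 2-fold limit, and was called higher relative to the macrophage list (1.35) or to Ptprc alone (1.18). Among the lists, 3 of the 10 migratory genes were called higher on this scale (Ccl17, Ccl22 at 1.501 and Ccr7 at 1.04) and 4 lower. All 9 pDC genes, 4 of 8 cDC1 genes, 2 of 7 cDC2 genes and 5 of 8 growth and development genes were called lower. Of all genes tested, 95.1% were called lower, with a median relative log2 difference of -3.60, so a lower call was the usual outcome on this scale.

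**Figure D4:**
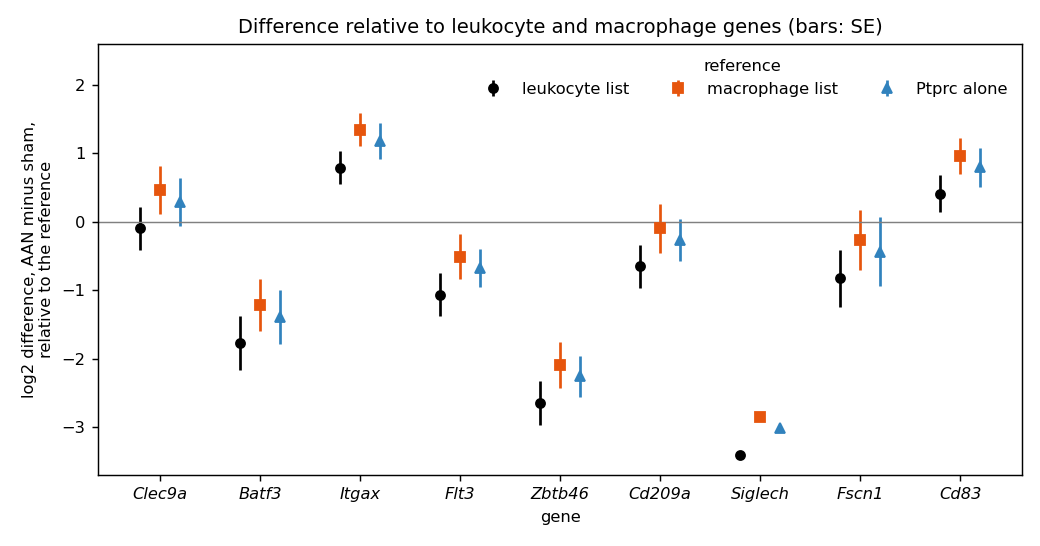
Log2 difference (AAN minus sham) of each gene relative to the leukocyte list (black), the macrophage list (orange) or Ptprc alone (blue) of the same mouse, with SE bars where tested. Zbtb46 and Batf3 lie more than 1 below 0 under all 3 references, and Itgax lies above 0 under all 3 (0.79, 1.35 and 1.18).

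Pairs of members were then compared inside each mouse, as the difference of their log2(FPKM + 0.1) values, and tested by exact permutation (two-sided, 210 ways to divide the mice, smallest possible p 0.00476) with adjustment over the 4 pairs. Zbtb46 and Itgax, both shared lineage genes, were nearly level in sham mice, at -0.40, 0.68, -0.02 and 0.10 in B607, B634, B636 and H249. In AAN mice Zbtb46 was below Itgax by -3.92 to -2.76. The shift was -3.44 (SE 0.28, exact permutation p = 0.00476, adjusted p = 0.00952), with all 6 AAN mice below every sham mouse. Zbtb46 and Itgax had the smallest and the largest log2 difference of the members tested (1.70 and 5.14). The shift restates these 2 values, and its p-value is no separate evidence. Siglech minus Flt3 went from -0.51 to -0.19 in sham mice to -3.22 to -2.23 in AAN mice. This shift was -2.34 (SE 0.20, exact permutation p = 0.00476, adjusted p = 0.00952), again in 6 of 6 mice, with both genes at or near the floor in sham mice. The shift likewise restates the log2 differences of Siglech and Flt3 (0.95 and 3.29), and its p-value is no separate evidence. With a pseudocount of 1 the shift was -1.06 and with 0.01 it was -2.19, so the pseudocount sets its size in part.

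The other pairs did not pass. Cd209a minus Clec9a, which sets a gene of cDC2 or monocyte-derived cells against a cDC1 gene, was 0.73 to 1.41 in sham and -0.12 to 1.16 in AAN mice. Its shift of -0.56 (SE 0.26) had an exact permutation p = 0.0905 and an adjusted p = 0.0952, and 4 of 6 AAN mice lay below every sham mouse. Without AAN mouse B614 it was -0.70 (exact permutation p = 0.0397, not adjusted over the pairs). Without sham mouse B607 it was -0.43 (exact permutation p = 0.214, not adjusted). Fscn1 minus Cd83, the mature genes, was -0.11, -2.02, -0.19 and 1.04 in sham mice B607, B634, B636 and H249 and -2.75 to -0.64 in AAN mice. Its shift was -1.24 (SE 0.71, exact permutation p = 0.0952, adjusted p = 0.0952). Without sham mouse B634 it was -1.81 (exact permutation p = 0.0119, not adjusted, the smallest possible with 84 ways). Without sham mouse H249 it was -0.78 (exact permutation p = 0.25, not adjusted).

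**Figure D5:**
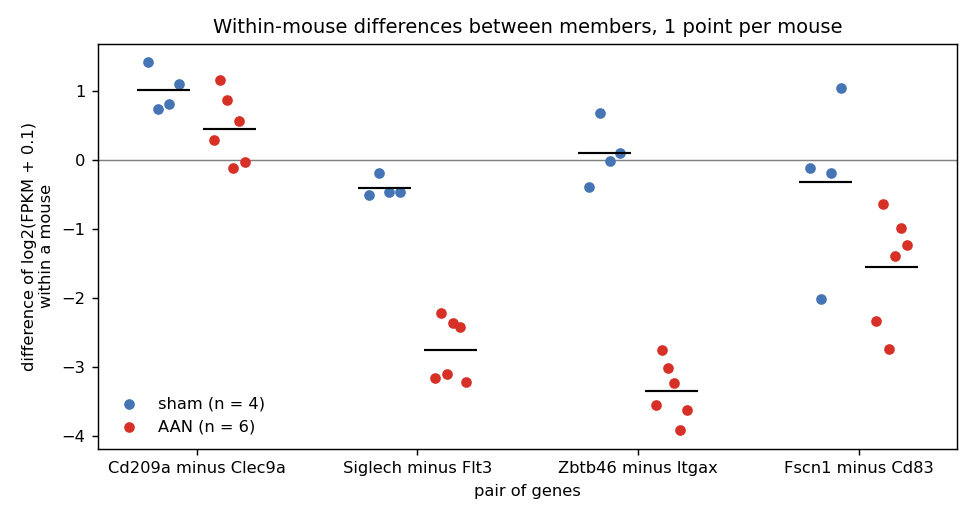
Difference of log2(FPKM + 0.1) between 2 genes of the same mouse, 1 point per mouse, for 4 pairs in sham (blue, n = 4) and AAN mice (red, n = 6), with bars at the means. The groups are separate for Siglech minus Flt3 and Zbtb46 minus Itgax and overlap for the other pairs.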

How the data were processed

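RNA from the kidney cortex of 10 mice was sequenced by the authors, who mapped reads to GRCm38.p4 with HISAT2 and obtained FPKM per annotated gene through StringTie. The deposited FPKM values were used as given, for 21792 Ensembl genes, of which 21650 had a symbol in GENCODE mouse release 21 (GRCm38). No mice were pooled, the labels give no batch, and each replicate is a separate mouse named by its tag. The authors tested with edgeR, which needs counts. Here limma 3.58.1 in R 4.3.3 (lmFit, eBayes with trend and robust) was run in its place on log2(FPKM + 0.1), keeping 17129 genes whose mean over the mice reached 0.1 FPKM. The Benjamini-Hochberg adjustment ran over all of them, and a call needed an adjusted p of at most 0.05 and at least 2-fold.

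Genes with several transcripts, as all 9 members have, share fragments between transcripts, and strand use was not stated. Depth was recovered from low values of genes with 1 transcript, where 95.0% to 96.9% were whole fragments (tolerance 0.05). Fragment numbers of members are upper limits over the exonic length, and floors of 3 fragments use the longest transcript. Both cover counting error only. Values per mouse were computed in Python 3.11.15 with scipy 1.17.1, numpy 2.4.6 and pandas 2.3.3, and plots drawn with matplotlib 3.10.9.

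The members, lists and pairs were chosen with earlier results of these data known. Named were all 9 members, the genes of the dendritic cell and Cd209 lists, and for each member the 3 genes most correlated with it. Genes of the other lists (leukocyte, macrophage, monocyte, B cell, T cell, fibroblast, endothelium, proximal tubule, podocyte, injured tubule) were counted. Clec1b and Gm43914, named for their overlap with Clec9a, were chosen after their values were seen. Alternatives were a pseudocount of 1 or 0.01, the filter dropped or raised to 1 FPKM, other scalings, limma without trend and robust, no fold limit, other reference lists, each mouse left out and mice with B tags alone. Sequences came from RefSeq (GRCm38.p6).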

Additional observations from a re-analysis of the deposited data

Results flagged for a closer look

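Among 26 groups of values examined, 2 held a mouse far from the rest of its group, where chance gives about 1.3. Batf3 in sham mouse B634 was 0.810 FPKM, while the others of its group held 0.322 to 0.399, and it still lay below the lowest AAN mouse at 1.16. Siglech minus Flt3 in the same mouse was -0.19, with -0.51 to -0.46 in the others, and both genes were at or near the floor there.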

How the results depend on the processing

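Members called higher stayed at 8 under each alternative except a mean of at least 1 FPKM, which leaves out Flt3, and quantile normalization, which loses Zbtb46 (7 each). Relative to leukocytes, 1 member was called higher with no fold limit, with the macrophage reference and with Ptprc as reference, and 2 to 4 were called lower over all alternatives (3 as reported). Genes called higher numbered 6126 and lower 588. With a pseudocount of 1, 2909 were higher, and with a mean of at least 1 FPKM 4025. Median of ratios gave 3261 higher and 1801 lower, quantile normalization 2537 and 2025, the same FPKM total 332 lower, and no fold limit 9482 and 1027. The share of called genes that were higher, 91.2%, became 64.4% by the median of ratios and 55.6% by quantile normalization, with the median of all genes at 0.06 and -0.10 in place of 0.75. With the same FPKM total it was 96.4%, a change of under 10 points, and that median was 1.07.

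Cd209a minus Clec9a was 0.0156 with a pseudocount of 1 (exact permutation p = 0.952) and -0.86 with 0.01 (p = 0.0238), and ranged from -0.70 to -0.43 with a mouse left out. Fscn1 minus Cd83 was -1.37 with a pseudocount of 1 (exact permutation p = 0.019), from -1.81 to -0.78 with a mouse left out, and -0.63 in mice with B tags alone. The cause was not tested. The p-values for these alternatives were not adjusted over the pairs. Of the other values for single members, 360 kept their direction and side of the limits, 9 gained and 9 lost a call, and none changed direction with a call. No paired analysis was made, since the sample labels do not give the litter or any other pairing of the mice. Low sham levels limit Siglech and Flt3.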

Other observations

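Cell types outside the dendritic lists moved in different directions. All 4 injured tubule genes were called higher, with a median log2 difference of 6.53 and a sum of 1.16 to 1.86 FPKM in sham and 105 to 324 in AAN mice. Of the 5 proximal tubule genes, 4 were called lower (median -1.87), and of 4 podocyte genes 1 was called higher (median 0.38). The T cell list had a median of 5.14, the macrophage list 4.25, the monocyte list 2.77, the B cell list 2.35 and the fibroblast list 2.23, beside 3.61 for the 8 lineage genes tested and 0.53 for endothelium.

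The genes whose pattern was most like each member were found by Pearson's r of log2(FPKM + 0.1) over the 10 mice, which share the difference between the groups, so the values are a description. Among 12240 genes, Itgax was most like Map4k1 (0.998), Gem and Nckap1l. Cd83 was nearest to Adgrg2 (0.998), Galnt6 and again Map4k1. Flt3 was nearest to Vsig10 (0.999), Evi2a and Il1r1. Clec9a was nearest to Klf10 (0.994), Klc3 and Nradd, and Cd209a to Trim34a (0.994), Klc3 and Plcb2. For Batf3 the nearest were Pdgfa (0.991), Hsp25-ps1 and Cib2, for Zbtb46 Commd8 (0.990), Mau2 and Dcstamp, and for Fscn1 Zc3hc1 (0.988), Hmgn2-ps1 and Gzmb. Siglech had the lowest top value, 0.955 with Abcb9, followed by Mdfic and an immunoglobulin kappa variable gene.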
